A study of Mus musculus with 8 samples.

Results

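A set of 10 genes, ATF4 and genes of amino acid metabolism that this transcription factor is known to control, was followed in retinas of mice labelled Kv8.2 KO and WT, of 26824 genes in the count table and 20167 tested. They were matched by symbol: Aldh18a1 and Pycr1 of proline synthesis, Phgdh, Psat1 and Psph of serine synthesis, Shmt2 and Mthfd2 of the mitochondrial folate pathway, Asns of asparagine synthesis, Atf4 itself, and Chac1. The list was drawn up from the higher level of Aldh18a1 in the KO libraries, so the values of Aldh18a1 are given as a description, with no test. The other 9 genes were listed by their role in the same pathways, with earlier results of these data known. All 10 passed the filter on low counts.

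RNA was sequenced from whole retinas of 3 WT and 5 KO mice aged 1 month, with 2 retinas of a mouse in each library and no treatment. The libraries are numbered WT 1 to WT 3 and KO 2 to KO 6. Kv8.2, encoded by Kcnv2, is a potassium channel subunit of photoreceptors that forms channels only together with other subunits. The labels give neither the allele nor the strain background. The series text says that the authors left out 2 KO samples without naming them, so all 8 were used. The labels give separate mice, so p-values measure the spread between mice and libraries together, within the libraries of each fit.

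Each library held 17759146 to 25188870 counts, at which 3 counts equal 0.119 to 0.169 counts per 1000000 (CPM). Kcnv2 was at 519 to 551 CPM in WT, 585 CPM in KO 2, 447 CPM in KO 3 and 398 to 409 CPM in KO 4 to KO 6. Its log2 fold change was -0.24 (SE 0.14, edgeR adjusted p = 0.275) over all KO libraries, -0.04 (SE 0.15, edgeR adjusted p = 0.903) for KO 2 and KO 3, and -0.38 (SE 0.05, edgeR adjusted p = 0.000116) for KO 4 to KO 6, where 42.8% of all tested genes were called. Its transcript was present throughout and its level does not separate the groups, so it does not check the labels; KO below means the libraries so labelled. Rod markers summed to 47003 to 50735 CPM in WT and 40802 to 59742 CPM in KO, and all 10 were expressed, as the tissue label says. KO 4, KO 5 and KO 6 stood apart from the other libraries: mitochondrial genes took 3.03% to 3.70% of their counts, against 5.23% and 6.52% in KO 3 and KO 2 and 7.09% to 7.92% in WT. KO 3 held 5.02% of its counts in 15 lens markers, against at most 0.170% elsewhere. WT 3 held 2132 counts of the Y-linked gene Ddx3y and 9 of Xist, while the other 7 libraries held at most 3 and at least 30144. By these counts WT 3 came from a male and the other 7 libraries, with all KO, from females. The part of sex in the fold changes was not tested. Because of the mitochondrial and lens shares, the fold changes of the 10 genes are also given for KO 2 and KO 3 and for KO 4 to KO 6. Both sets share the 3 WT libraries, and this split does not address sex. KO 2 and KO 3 are not alike: pairs with KO 3 differed by a chi-square per degree of freedom of 97 to 116 (110.03 for KO 2 and KO 3), KO 2 and each of KO 4 to KO 6 by 44 to 62, WT pairs by 8.20 to 17.76 and pairs among KO 4 to KO 6 by 5.85 to 6.92.

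ATF4 is the effector of the integrated stress response. Kinases that sense stress phosphorylate the initiation factor eIF2alpha, which lowers protein synthesis in general while favouring translation of Atf4 mRNA, and the ATF4 protein then raises transcription of genes for amino acid synthesis, amino acid uptake and tRNA charging. Because this control acts largely on translation, Atf4 mRNA does not report the activity of the protein. In the retina, serine synthesis is known mainly from Muller glia, which supply photoreceptors with serine and glycine.

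Aldh18a1 (ENSMUSG00000025007) encodes the mitochondrial enzyme that turns glutamate into the precursor of proline and ornithine. The 3 WT libraries held 17.1, 16.6 and 18.3 CPM of it, and KO 2 to KO 6 held 29.0, 26.7, 24.8, 32.0 and 33.5 CPM. Every KO library lay above every WT library, and KO 4, KO 5 and KO 6 held both the lowest and the highest of the KO levels. WT averaged 17.4 ± 0.876 CPM (SD, n = 3) and KO 29.2 ± 3.61 CPM (SD, n = 5), which is 1.68 times the WT level. The log2 fold change was 0.75 (SE 0.12), with 0.68 (SE 0.11) for KO 2 and KO 3 and 0.80 (SE 0.11) for KO 4 to KO 6. Pycr1, the mitochondrial reductase of the last step to proline, was far lower, on 19 to 46 counts per library. It was at 1.04, 1.97 and 1.07 CPM in WT and 1.91, 1.90, 2.17, 1.38 and 2.10 CPM in KO 2 to KO 6. WT 2 lay among the KO libraries, and the log2 fold change of 0.47 (SE 0.28) did not pass the test (edgeR adjusted p = 0.308). It was 0.48 (SE 0.37) for KO 2 and KO 3 and 0.47 (SE 0.33) for KO 4 to KO 6, but 0.85 without WT 2.

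Among the 9 genes other than Aldh18a1, the quasi-likelihood test of edgeR, adjusted over all genes by Benjamini-Hochberg, called 0. In the same comparison it called 1529 of 20167 tested genes (7.58%), 956 higher (4.74%) and 573 lower (2.84%). An unadjusted p under 0.05 was reached by 3 of the 9, namely Phgdh, Psat1 and Psph, and by 27.3% of all tested genes. DESeq2 called 0 of the 9 and 15.5% of all tested genes. Limma voom with quality weights called 4 of the 9, Phgdh, Mthfd2 and Asns as higher and Psph as lower, and 40.9% of all tested genes. These shares lie near the background of each rule. The fold change was above 0 for 8 of the 9 (50.1% of all tested genes), with a median of 0.19 on the log2 scale, against 0.00073 over all tested genes. The groups did not overlap for 2 of the 9 (20.9% of all tested genes), with KO higher for Phgdh (10.8%) and lower for Psph (10.1%). Scaling by library size alone left the direction of all 10 genes as it was, although over all genes the share of higher calls moved from 62.5% to 41.8%. It moved the median over all genes from 0.00073 to -0.032, less than the smallest fold change of the 10 (0.07, Atf4). The kept directions therefore do not show stability.

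**Figure D1:**
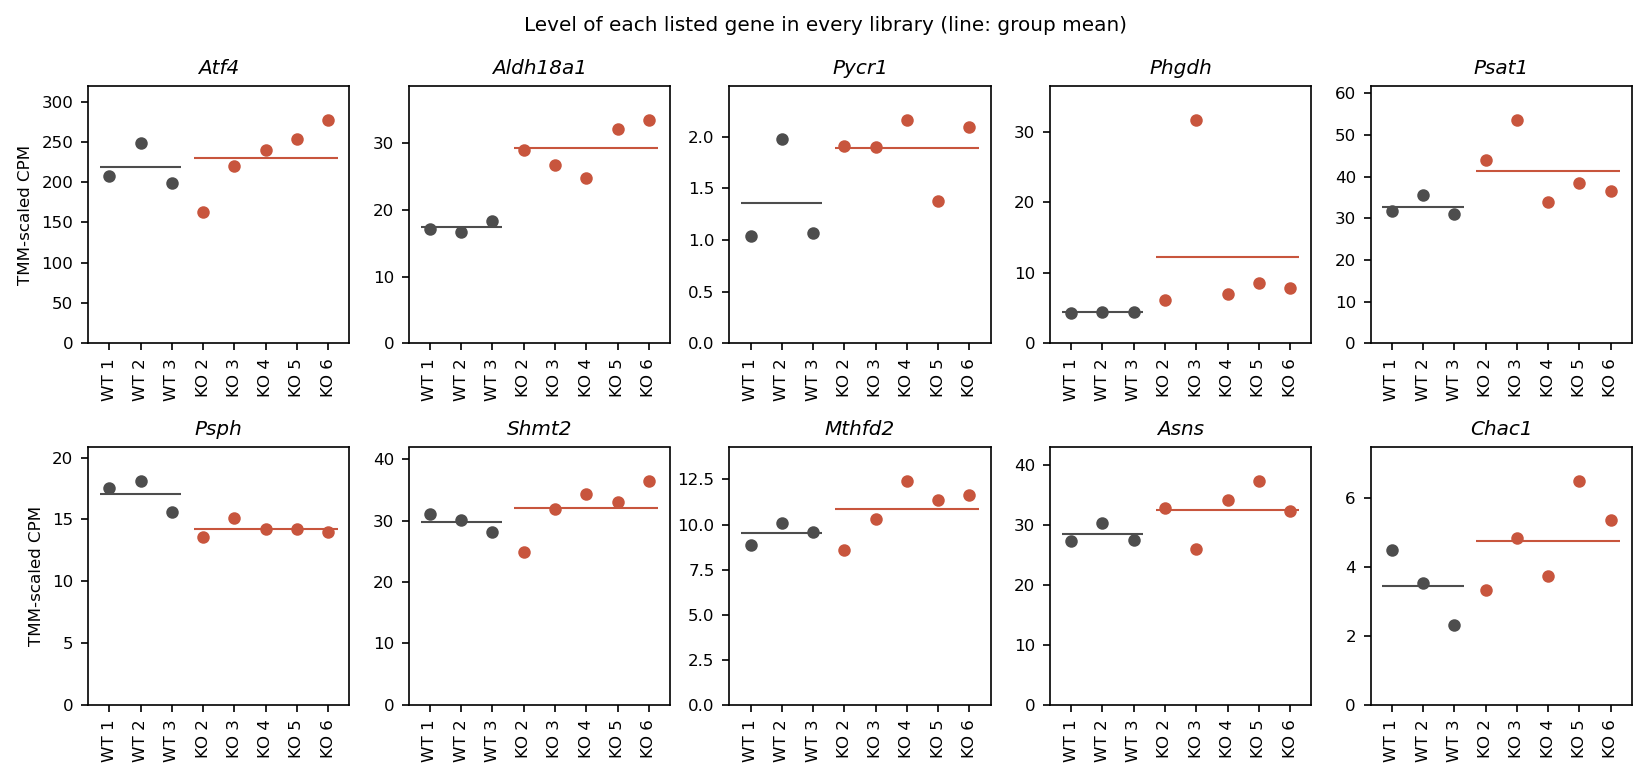
Level of each of the 10 genes in every library, in TMM-scaled CPM on a linear axis from 0, with a line at the mean of 3 WT (grey) and 5 KO (red) libraries. Aldh18a1 lies at 16.6 to 18.3 CPM in WT and 24.8 to 33.5 CPM in KO, and Phgdh in KO 3 stands at 31.7 CPM.

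Atf4 (ENSMUSG00000042406) was the most abundant of the 10 genes. The 3 WT libraries held 208, 249 and 200 CPM, and KO 2 to KO 6 held 162, 220, 239, 254 and 278 CPM. The groups overlapped, with KO 2 the lowest and KO 5 and KO 6 the highest of the 8 libraries. WT averaged 219 ± 26.4 CPM (SD, n = 3) and KO 231 ± 43.6 CPM (SD, n = 5), a log2 fold change of 0.07 (SE 0.16) that did not pass the test (edgeR adjusted p = 0.804). Its sign depended on the libraries: -0.20 (SE 0.16, edgeR adjusted p = 0.532) for KO 2 and KO 3, and 0.24 (SE 0.08, edgeR adjusted p = 0.0325) for KO 4 to KO 6. In that last comparison 42.8% of all tested genes were called (22.3% higher and 20.5% lower), against 0.891% for KO 2 and KO 3 (0.624% and 0.267%). Of the 9 genes, 5 were called higher there (Phgdh, Shmt2, Mthfd2, Asns and Atf4) and 1 lower (Psph), and 0 for KO 2 and KO 3, where 2 of the 9 (Phgdh and Psat1) had an unadjusted p under 0.05 by edgeR (19.0% of all tested genes). KO 4 to KO 6 are the libraries with the lowest mitochondrial share, and the part of this in these calls was not tested. In the comparison of KO 4 to KO 6 with WT, genotype and whatever sets these libraries apart from KO 2 and KO 3 cannot be told apart. Its p-values rest on the spread within these libraries and within WT, and not on the gap to KO 2 and KO 3.

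Of the listed genes, 3 carried the core of the C/EBP-ATF response element in their start-site window, the DNA motif that ATF4 dimers bind, and these windows are shown with that of Aldh18a1, which lacked it. The motif was searched as TGATGNAA, or TTNCATCA on the other strand, from 250 bases before to 50 after the transcript start in RefSeq on GRCm38.p6. All 10 genes had a window, 11 in all, as Psat1 had a pair. Capitals mark the match, 5′ to 3′ on the strand of the gene, and all 4 genes shown come with their window's coordinates.
Chac1, chr2:119350992-119351291, plus strand: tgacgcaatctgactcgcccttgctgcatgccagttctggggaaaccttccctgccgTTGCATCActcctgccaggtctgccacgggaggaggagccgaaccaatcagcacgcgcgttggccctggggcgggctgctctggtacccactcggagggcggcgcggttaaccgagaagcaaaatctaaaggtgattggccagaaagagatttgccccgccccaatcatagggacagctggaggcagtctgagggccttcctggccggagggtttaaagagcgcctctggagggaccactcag
Asns, chr6:7693160-7693459, minus strand: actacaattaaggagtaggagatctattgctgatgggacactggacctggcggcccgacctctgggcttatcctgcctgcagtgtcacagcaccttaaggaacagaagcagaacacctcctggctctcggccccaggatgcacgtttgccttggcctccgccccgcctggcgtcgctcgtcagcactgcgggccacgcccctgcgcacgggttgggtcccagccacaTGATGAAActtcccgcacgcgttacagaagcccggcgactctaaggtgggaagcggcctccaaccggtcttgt
Pycr1, chr11:120643699-120643998, minus strand: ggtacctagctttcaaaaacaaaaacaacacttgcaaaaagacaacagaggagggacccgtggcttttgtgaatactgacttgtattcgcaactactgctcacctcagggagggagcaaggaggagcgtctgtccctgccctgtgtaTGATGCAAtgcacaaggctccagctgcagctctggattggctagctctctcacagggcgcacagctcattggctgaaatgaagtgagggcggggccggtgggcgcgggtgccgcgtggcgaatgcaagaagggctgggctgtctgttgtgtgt
Aldh18a1, chr19:40588414-40588713, minus strand: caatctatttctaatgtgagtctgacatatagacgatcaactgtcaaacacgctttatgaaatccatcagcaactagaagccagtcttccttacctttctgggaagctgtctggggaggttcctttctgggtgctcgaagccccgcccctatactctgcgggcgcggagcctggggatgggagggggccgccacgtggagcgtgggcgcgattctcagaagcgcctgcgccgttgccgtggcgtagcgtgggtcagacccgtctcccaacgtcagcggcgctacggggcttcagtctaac
The match began 193 bases before the start in Chac1, 23 in Asns and 103 in Pycr1. It was found in 1219 of 27025 genes with a window (4.51%). None of these 3 genes passed the edgeR test over all libraries. A match is a run of letters and not a measured binding site.

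The 3 serine genes did not share a direction. Phgdh (ENSMUSG00000053398), the first enzyme, draws on a glycolytic intermediate. It was at 4.28, 4.51 and 4.49 CPM in the WT libraries and at 6.08, 31.7, 6.94, 8.59 and 7.79 CPM in KO 2 to KO 6. Every KO library lay above every WT library, and KO 3 lay far above the other 4. The log2 fold change over all libraries was 1.46 (SE 0.54, edgeR adjusted p = 0.111), and the gene was not called. For KO 2 and KO 3 it was 2.09 (SE 0.53, edgeR adjusted p = 0.111), and for KO 4 to KO 6 0.82 (SE 0.15, edgeR adjusted p = 0.000676). Without KO 3 it was 0.74 (SE 0.16) and Phgdh rose, with an edgeR adjusted p of 0.0123, where 3992 genes in all were called. KO 3 is the library with 5.02% lens transcripts, and the part of these in its Phgdh level was not tested. A share of 56.3% of the 31-base words of Phgdh transcripts also occurs in other genes, chiefly the pseudogenes Gm7901 and Gm9347, so the division of its counts is uncertain. The count table holds neither pseudogene under that symbol, so whether reads went to them cannot be seen.

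Psat1, the aminotransferase of the middle step, was at 31.7, 35.5 and 31.1 CPM in WT and 43.9, 53.7, 33.8, 38.5 and 36.4 CPM in KO 2 to KO 6. Of the KO libraries only KO 4 lay within the WT range, and KO 2 and KO 3 were highest. The log2 fold change of 0.33 (SE 0.14) was not called (edgeR adjusted p = 0.168), and it was 0.57 (SE 0.12) for KO 2 and KO 3 and 0.16 (SE 0.08) for KO 4 to KO 6. Psph, the phosphatase that releases serine, lay the other way. It was at 17.5, 18.1 and 15.6 CPM in WT and 13.5, 15.1, 14.2, 14.2 and 14.0 CPM in KO, every KO library below every WT library. Its log2 fold change was -0.27 (SE 0.10, edgeR adjusted p = 0.126), with -0.25 (SE 0.13) for KO 2 and KO 3 and -0.26 (SE 0.10) for KO 4 to KO 6. It passed the test after correction for GC content (log2 fold change -0.40, edgeR adjusted p = 0.0445), where 1345 of 18028 tested genes were called. Over 30 alternatives Psph was called in 3, and in 0 of the 8 fits without 1 library. Psph overlaps Cct6a on the opposite strand and shares 9.79% of its 31-base words with other genes, so without a stated strand setting its count is uncertain. Cct6a averaged 168 CPM in WT and 169 CPM in KO. Psat1 also overlaps a gene on the opposite strand (Gm3329), as does Shmt2 (Ndufa4l2), with the same limit.

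Muller glia markers, measured beside the serine genes, summed to 4706 to 5003 CPM in WT and 5305 to 7506 CPM in KO, with 5 of 14 called higher (4.74% of all tested genes), 0 lower (2.84%) and none at 0. Their part in the values of Phgdh and Psat1 was not tested. In bulk tissue, more cells of a type and more RNA per cell cannot be told apart.

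Neither mitochondrial folate enzyme was called over all 8 libraries. Shmt2, which splits serine into glycine and a folate-bound carbon unit, was at 31.03, 30.1 and 28.1 CPM in WT and 25.0, 31.9, 34.4, 33.0 and 36.4 CPM in KO 2 to KO 6. KO 2 was the lowest of the 8 libraries, and the log2 fold change was 0.11 (SE 0.12, edgeR adjusted p = 0.593). Mthfd2, which oxidises that carbon unit in the mitochondrion, was at 8.88, 10.1 and 9.59 CPM in WT and 8.60, 10.3, 12.4, 11.3 and 11.7 CPM in KO, again with KO 2 lowest. Its log2 fold change was 0.19 (SE 0.14, edgeR adjusted p = 0.417). For KO 4 to KO 6 alone both passed the test, at 0.23 (SE 0.07, edgeR adjusted p = 0.0230) for Shmt2 and 0.32 (SE 0.11, edgeR adjusted p = 0.0386) for Mthfd2, where 42.8% of all genes did. For KO 2 and KO 3 the values were -0.07 (SE 0.13) and -0.01 (SE 0.16).

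Mthfd2l, a mitochondrial paralogue of Mthfd2 with a similar reaction, fell. It was at 16.4, 17.3 and 18.0 CPM in WT and 12.6, 12.6, 9.70, 9.56 and 9.16 CPM in KO 2 to KO 6, a log2 fold change of -0.68 (SE 0.14, edgeR adjusted p = 0.0239). The groups did not overlap. The value was -0.45 (SE 0.12, edgeR adjusted p = 0.120) for KO 2 and KO 3 and -0.85 (SE 0.10) for KO 4 to KO 6.

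Asns, which amidates aspartate to asparagine, was at 27.4, 30.3 and 27.5 CPM in WT and 32.8, 26.0, 34.0, 37.3 and 32.2 CPM in KO 2 to KO 6. KO 3 was below every WT library and the other 4 KO libraries above. The log2 fold change was 0.19 (SE 0.12, edgeR adjusted p = 0.314), with 0.05 (SE 0.13) for KO 2 and KO 3 and 0.29 (SE 0.08, edgeR adjusted p = 0.00995) for KO 4 to KO 6. Chac1, an enzyme of glutathione breakdown and a target of ATF4 in stressed cells, was low. It was at 4.50, 3.53 and 2.31 CPM in WT and 3.34, 4.85, 3.74, 6.49 and 5.38 CPM in KO, with KO 2 and KO 4 inside the WT range. Its log2 fold change of 0.47 (SE 0.27) did not pass the test (edgeR adjusted p = 0.288), with 0.26 (SE 0.31) for KO 2 and KO 3 and 0.61 (SE 0.26, edgeR adjusted p = 0.0719) for KO 4 to KO 6. It was 0.25 without WT 3 and also 0.25 under the GC offset.

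**Figure D2:**
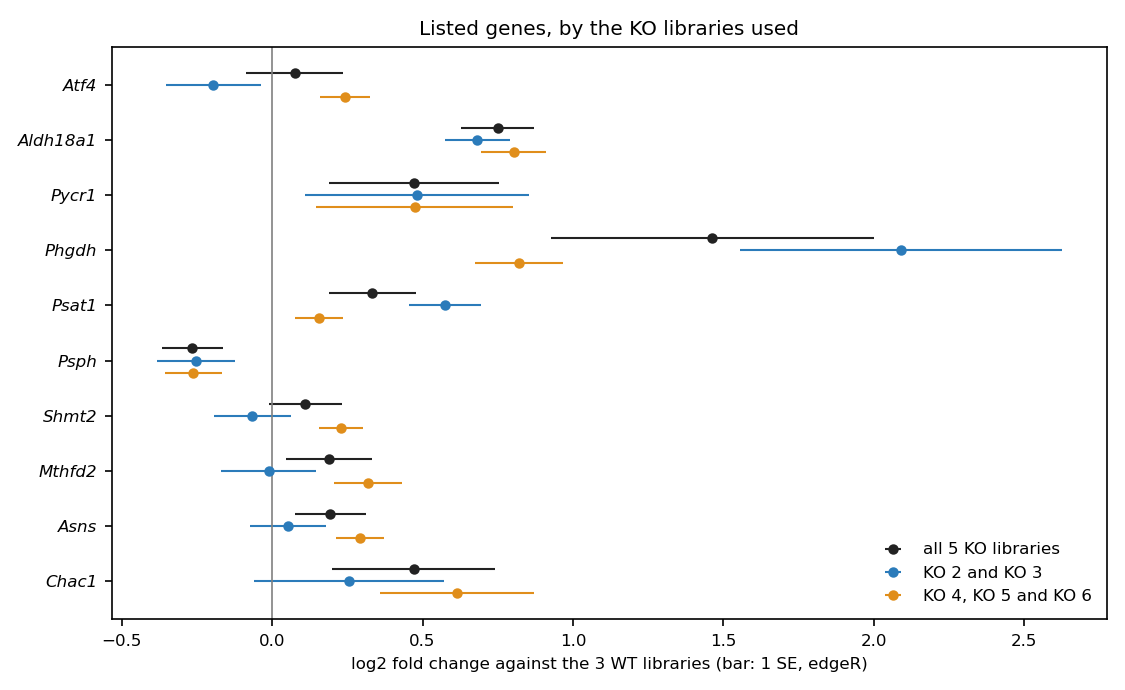
Log2 fold change of each of the 10 genes against the same 3 WT libraries, for all 5 KO libraries (black), KO 2 and KO 3 (blue) and KO 4 to KO 6 (orange), with a bar of 1 SE to each side. Aldh18a1 lies at 0.68 to 0.80 and Psph at -0.27 to -0.25 in each set, while Atf4, Shmt2 and Mthfd2 lie on both sides of 0.

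Levels between genes were compared as CPM per kb of the longest protein-coding transcript, in WT. Atf4 led at 127 ± 15.3 CPM per kb (SD, n = 3). Asns (14.1 ± 0.82), Shmt2 (13.0 ± 0.654) and Psat1 (12.5 ± 0.911) followed. The libraries of Shmt2 and Psat1 overlapped, while those of Asns all lay just above those of Shmt2. Psph was at 9.86 ± 0.748 CPM per kb, and Aldh18a1 at 4.92 ± 0.248 overlapped Mthfd2 at 4.57 ± 0.296. Phgdh at 2.34 ± 0.0685 lay within the range of Chac1 at 2.10 ± 0.669, and Pycr1 was lowest at 0.467 ± 0.183. Cytosolic Shmt1 was at 0.802 ± 0.197 CPM per kb, far below mitochondrial Shmt2, and was not called (edgeR adjusted p = 0.265). Mthfd1l, which releases formate from the mitochondrion, was not called either (log2 fold change 0.35, SE 0.15, edgeR adjusted p = 0.1503).

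**Figure D3:**
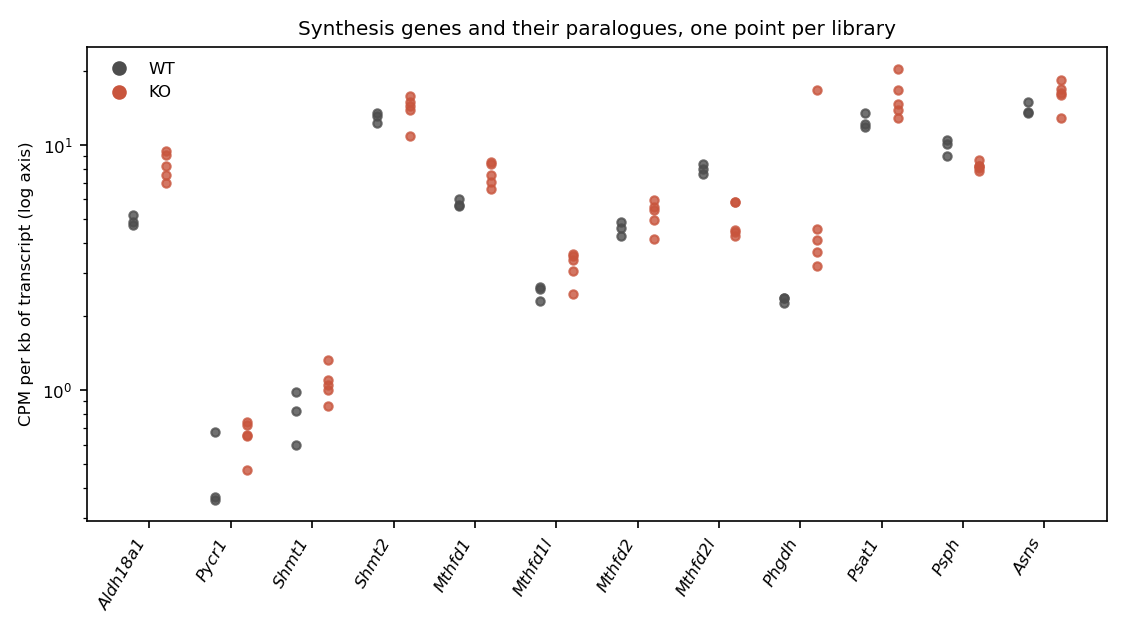
CPM per kb of transcript on a log axis for the synthesis genes and their paralogues, with 1 point per library (WT grey, KO red). Shmt1 lies below Shmt2 in every library, and Mthfd2l in KO lies below its WT points.

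Other genes of the pathway were grouped in 7 lists by function, 94 symbols with 91 tested. Of these, 14 were called higher and 1 lower (background 4.74% and 2.84%), and their median log2 fold change was 0.17 against 0.00073 over all genes. Without WT 1 or WT 3, 0 of the 91 were called by edgeR, where 0.636% and 0.955% of all tested genes were, and without WT 2 it was 1, where 0.646% were. Without KO 3 the number was 32, against 3992 of 19920 tested genes (20%). For KO 2 and KO 3 against WT it was 1, Slc7a11 (0.891% of all tested genes), and for KO 4 to KO 6 it was 48 (42.8%). Beside these calls, endothelial markers summed to 246 to 250 CPM in WT and 294 to 416 CPM in KO, with 1 of 8 called higher (Kdr), and microglia markers to 57.2 to 63.7 CPM and 67.7 to 90.2 CPM, with 2 of 10 called higher, where 4.74% of all tested genes were. None of these markers was at 0 in any library. The part of the endothelial, microglia and Muller glia markers and of the lower mitochondrial share in these calls was not tested.

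Among the cytosolic aminoacyl-tRNA synthetases, which load amino acids onto tRNA, 5 of 20 rose and 0 fell (4.74% and 2.84% of all tested genes), with a list median of 0.22. Aars1, for alanine, was at 143, 148 and 148 CPM in WT and 264, 160, 255, 283 and 269 CPM in KO 2 to KO 6. Every KO library was above WT, with KO 3 nearest to it, and the log2 fold change was 0.75 (SE 0.17, edgeR adjusted p = 0.0295). Gars1, for glycine (0.63, SE 0.12, edgeR adjusted p = 0.0192), Vars1, for valine (0.63, SE 0.15, edgeR adjusted p = 0.0325), and Kars1, for lysine (0.56, SE 0.11, edgeR adjusted p = 0.0173), rose too. The fifth was Wars1, for tryptophan (0.46, SE 0.12, edgeR adjusted p = 0.0494), named after its value was seen. KO 3 was the lowest KO library for all 5. None was called for KO 2 and KO 3 against WT, where their log2 fold changes were 0.27 to 0.54. Wars1 lost its call under a GC offset (edgeR adjusted p = 0.0565), while Vars1 kept it at a log2 fold change of 0.37 (edgeR adjusted p = 0.0364). Of 13 synthetase genes with a start-site window, 5 held TGATGNAA or TTNCATCA, namely Aars1, Gars1, Iars1, Tars1 and Yars1, of which only Aars1 and Gars1 were called. The motif was in 4 of 13 genes with a window among other ATF4 targets, 2 of 8 transporters, 1 of 9 proline and glutamate enzymes, 0 of 7 in the kinase list, 0 of 9 serine and glycine enzymes and 0 of 9 folate enzymes, against 4.51% of all genes.

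Amino acid transporters rose in 4 of 11 cases and fell in 0 (4.74% and 2.84% of all tested genes), with a list median of 0.35. Slc3a2 and Slc7a5 encode the heavy and light chains of one exchanger of large neutral amino acids. Slc3a2 was at 74.6, 84.5 and 74.5 CPM in WT and 97.5, 105, 130, 138 and 130 CPM in KO 2 to KO 6 (log2 fold change 0.62, SE 0.13, edgeR adjusted p = 0.0234). Slc7a5 was at 43.4, 47.3 and 50.7 CPM in WT and 75.0, 62.2, 57.5, 68.2 and 77.3 CPM in KO (0.53, SE 0.11, edgeR adjusted p = 0.0251). In both, every KO library lay above every WT library. Slc1a4, a carrier of serine, alanine and other neutral amino acids, rose by 0.76 (SE 0.17, edgeR adjusted p = 0.0293), and Slc38a2, a sodium-coupled carrier of glutamine and alanine, by 0.43 (SE 0.12, edgeR adjusted p = 0.0497). Slc7a5 lost its call under a GC offset (edgeR adjusted p = 0.0965).

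Slc7a11, the cystine carrier of glutathione supply and a known ATF4 target, split the KO libraries. It was at 18.5, 16.9 and 20.5 CPM in WT, 28.0 and 33.7 CPM in KO 2 and KO 3, and 8.62, 12.2 and 8.97 CPM in KO 4 to KO 6. The first pair lay above every WT library and the other 3 below. Over all libraries the log2 fold change was -0.02 (SE 0.43, edgeR adjusted p = 0.978), with 0.73 (SE 0.13, edgeR adjusted p = 0.0473) for KO 2 and KO 3 and -0.90 (SE 0.14, edgeR adjusted p = 0.000244) for KO 4 to KO 6. Its start-site window held the motif in both orientations.

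Upstream, Eif2ak3, the kinase PERK of the endoplasmic reticulum, rose from 39.8 ± 2.78 CPM (SD, n = 3) to 49.4 ± 2.45 CPM (SD, n = 5), a log2 fold change of 0.31 (SE 0.08, edgeR adjusted p = 0.0443). It was the 1 called gene of 9 in its list, where 7.58% of all tested genes were called, and lost its call under a GC offset (edgeR adjusted p = 0.0579). The other kinases were not called: Eif2ak1, activated by haem shortage (0.19, SE 0.10, edgeR adjusted p = 0.230), Eif2ak2, by double-stranded RNA (0.42, SE 0.21, edgeR adjusted p = 0.229), and Eif2ak4, by uncharged tRNA (0.01, SE 0.13, edgeR adjusted p = 0.955). These are transcript levels, while the kinases act by phosphorylation.

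Of 16 other ATF4 target genes tested, 2 rose and 0 fell (4.74% and 2.84% of all tested genes), with a list median of 0.16. Atf3, a stress-induced transcription factor, was at 3.02, 4.47 and 2.66 CPM in WT and 7.77, 6.23, 12.6, 10.1 and 10.2 CPM in KO 2 to KO 6, without overlap. Its log2 fold change was 1.47 (SE 0.26, edgeR adjusted p = 0.0140), and 1.05 (SE 0.26, edgeR adjusted p = 0.104) for KO 2 and KO 3. Sesn2, a sensor that restrains growth signalling when leucine is short, rose by 0.64 (SE 0.17, edgeR adjusted p = 0.0458), and lost its call under a GC offset (edgeR adjusted p = 0.0540). Ddit3, the factor CHOP of prolonged stress, was at 42.9 ± 3.45 CPM in WT and 44.3 ± 2.85 CPM in KO (SD, n = 3 and n = 5), with a log2 fold change of 0.05 (SE 0.09, edgeR adjusted p = 0.766). Its sign changed under the GC offset (-0.13, edgeR adjusted p = 0.251). Trib3, which feeds back on ATF4, had a log2 fold change of -0.30 (SE 0.17, edgeR adjusted p = 0.285). Under the GC offset Trib3 was at -0.51 (edgeR adjusted p = 0.124), and limma voom, with 40.9% of all tested genes called, gave an adjusted p of 0.0406.

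In the lists of neighbouring enzymes, Got1, the cytosolic aspartate aminotransferase, rose by 0.60 (SE 0.14, edgeR adjusted p = 0.0317) as the 1 called gene of 12 for proline and glutamate, a share near the 7.58% of all tested genes. Of 11 genes for serine and glycine, edgeR called 0, with 2 at an unadjusted p under 0.05, and DESeq2 and limma voom called 2 each, against 27.3% of all tested genes at that p, 15.5% by DESeq2 and 40.9% by limma voom. Of 12 folate genes, Gart of purine synthesis rose by 0.41 (SE 0.11, edgeR adjusted p = 0.0475) and Mthfd2l fell, as given above, against 4.74% of all tested genes called higher and 2.84% lower. Gart lost its call under a GC offset (edgeR adjusted p = 0.0509).

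**Figure D4:**
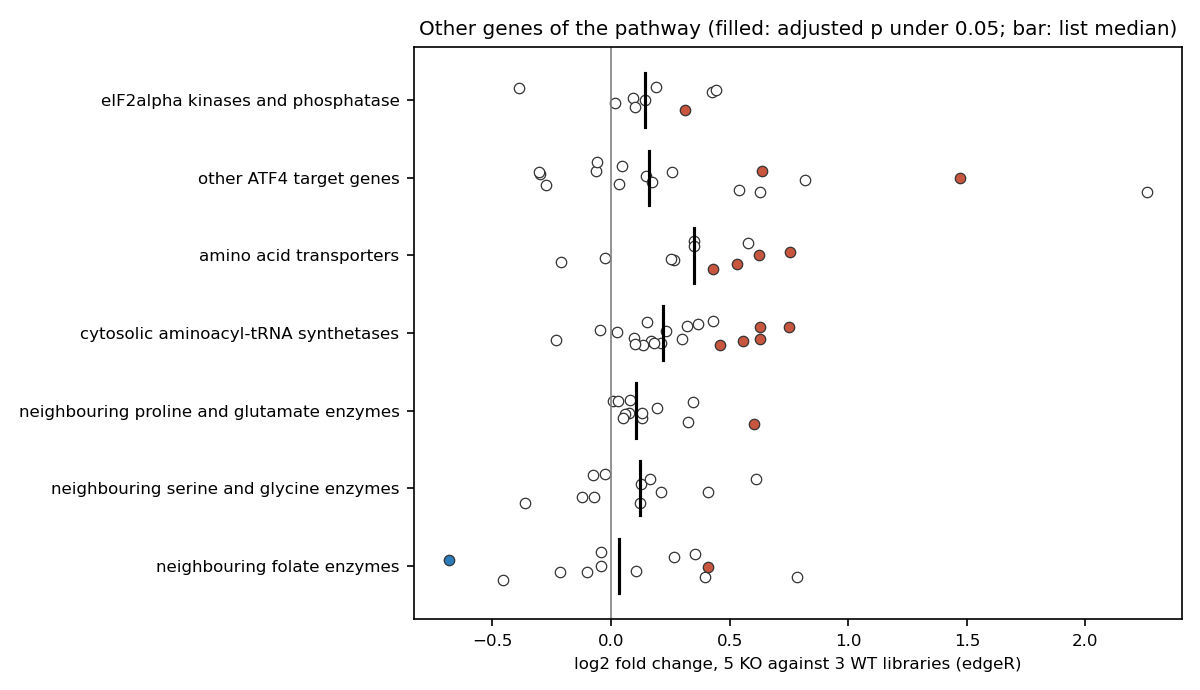
Log2 fold change, 5 KO against 3 WT libraries, for 91 tested genes in 7 lists, with filled points for genes called by edgeR (red higher, blue lower) and a black bar at the list median. Medians lie from 0.03 for folate enzymes to 0.35 for transporters, and Mthfd2l at -0.68 is the called gene on the left.

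The genes whose levels followed Aldh18a1 most closely over the 8 libraries were Htra1, Eif3b, 2900026A02Rik, Ctsz and Gm65068. Likeness was the root mean square distance between log2 CPM profiles, each centred on its own mean, among 14696 other genes averaging 1 or more in log2 CPM. The distances were 0.0779 for Htra1, a secreted protease, 0.0845 for Eif3b, a subunit of a translation initiation factor, 0.0948 for 2900026A02Rik, 0.0979 for Ctsz, a lysosomal protease, and 0.103 for Gm65068. Of the listed genes, Asns came nearest, at rank 3481 with a distance of 0.315, followed by Psat1 at rank 3908. Phgdh stood at rank 13972, and Pycr1 was below the minimum level.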

How the data were processed

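Per the submitters' processing notes, Trim Galore, Salmon 1.10.2, DESeq2 and the build GRCm38 were used, with no role given for each. The authors deposited 1 table of estimated counts per gene, taken as Salmon estimates rounded to whole numbers. It lists no gene under 16 counts in total. Annotation release and strand setting are not given in the sources used here. Of its 26824 identifiers, 22121 matched GENCODE M21, which gave transcript length, GC content, overlaps and shared 31-base words. The table's identifiers go beyond that release, so genome positions are given only for RefSeq start-site windows.

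TMM scaling, the filter filterByExpr and the quasi-likelihood test came from edgeR 4.0.16 (R 4.3.3), on all 8 libraries and without covariates. Adjustment was by Benjamini-Hochberg over all tested genes, with a call under 0.05. A standard error is the size of the log2 fold change over the square root of F. On simulated counts for 5 KO against 3 WT with 200 genes changed 2-fold, 101 were called (50.5%) with 7 others, among 19660 tested. These counts were drawn independently around the same expected level in all libraries of a group. They lack the gap between KO 4 to KO 6 and the other KO libraries, so these numbers need not hold for the real libraries. Floors of 3 counts cover counting error only. No pair of libraries of a group agreed within sampling noise (chi-square per degree of freedom 5.85 or more).

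Alternatives were DESeq2 1.42.0, limma voom 3.58.1 with quality weights, other scalings and filters, a GC offset, and fits without libraries. The members and lists were chosen with earlier results of these data known. Named are the 10 genes and Kcnv2, in each list up to 4 called genes with the largest rise and 3 with the largest fall, 11 genes set by name (1 of them is not reported here), and the 5 genes most like Aldh18a1. Numbers 2 and 3 are used in WT and in KO, and nothing says that they pair mice. Fgf21 alone of 171 listed symbols was not matched.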

Additional observations from a re-analysis of the deposited data

Results flagged for a closer look

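In 41 genes, the gap between the highest or lowest KO library and the next was compared with the whole range of the 5 KO libraries. A gap over 0.71 of the range was found 7 times, 6 of them in KO 3, the library with 5.02% lens transcripts. Chance gives about 2.05, if genes are taken as independent, which genes of the same library are not. Slc38a2, Aars1, Gars1 and Kars1 are named for their calls in these data and Nupr1 for its values. The 2.05 is therefore no test of the 7. Phgdh (0.902 of the range), Slc38a2 (0.714) and Nupr1 (0.977) were high in KO 3, and Aars1 (0.774), Gars1 (0.842) and Kars1 (0.728) were low in it. Kcnv2 was high in KO 2 (0.738).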

How the results depend on the processing

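The log2 fold change of Aldh18a1 stayed between 0.61 and 0.86 over 30 alternatives, and that of Psph between -0.40 and -0.21. Over all genes, against 1529 calls, DESeq2 gave 3130 and limma voom 8248. Leaving out 1 library gave 132 (without WT 1) to 3992 (without KO 3). KO 2 and KO 3 against WT gave 180. Sets of 3 KO libraries gave 203, 191 and 118 (KO 2 and KO 3 with KO 4, KO 5 or KO 6), 2593, 2225 and 2540 (KO 2 with KO 4 and KO 5, KO 4 and KO 6, or KO 5 and KO 6), 645, 496 and 399 (KO 3 with the same pairs) and 8416 (KO 4 to KO 6). Of the 9 listed genes, against 0, limma voom called 4, the GC offset 1, leaving out 1 library 0 to 1, KO 2 with any 2 of KO 4 to KO 6 1, and KO 4 to KO 6 6. Of the context genes, against 15, DESeq2 called 26, limma voom 50, leaving out 1 library 0 to 32, KO 2 and KO 3 alone 1, and sets of 3 KO libraries 0, 0, 0, 26, 22, 24, 4, 3, 3 and 48 in the order above.

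The replicate block of numbers 2 and 3, on 4 libraries, called 52 genes, 0 of the 9 listed and 0 context genes, against 14, 0 and 0 with no replicate block. Deviations of same-numbered libraries had correlations of -0.0044 and -0.24 over genes. The crossed pairing, chosen after seeing the data, called 527, 2 and 3.

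Fold changes near 0 changed sign. Shmt2 was at -0.066 for KO 2 and KO 3, -0.045 under the block, -0.045 under the crossed pairing, -0.035 for those 4 libraries without a block and -0.11 with the GC offset. Mthfd2 was at -0.011, -0.063, -0.064 and -0.059 in the first 4 of these. Atf4 was at -0.20, -0.24, -0.24, -0.23 and -0.084 in all 5, and at -0.079, -0.045 and -0.0021 for KO 2 with KO 3 and KO 4, KO 3 and KO 5, or KO 4 and KO 5. The cause was not tested. The library sets differ in number, and with 2 WT libraries few genes pass. Leaving out 1 library moved Pycr1 between 0.32 and 0.85 and Chac1 between 0.25 and 0.70, and neither was called in any of these fits. The same fits moved Shmt2 between 0.062 and 0.19 and Atf4 between 4.2e-05 and 0.19, also without a call. Pycr1 rests on 19 to 46 counts per library.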

Other observations

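Nupr1, a small stress-response protein among the ATF4 target genes, named here after its values were seen, was at 162 CPM in KO 3 and at 7.02 to 10.9 CPM in the other 7 libraries. Its log2 fold change was 2.26 (SE 1.09, edgeR adjusted p = 0.209) over all libraries and 0.18 (SE 0.19, edgeR adjusted p = 0.549) without KO 3. Pigment epithelium markers summed to 405 to 415 CPM in WT and 409 to 532 CPM in KO, with 0 of 10 called by edgeR, 3 at an unadjusted p under 0.05, 2 by DESeq2 and 6 by limma voom. Most of that sum was Rlbp1, also a Muller glia marker, at 308 to 322 CPM in WT and 321 to 424 CPM in KO. The fold change was above 0 for 4 of the 10, with a list median of -0.32 on the log2 scale. Of 10 rod markers edgeR called 0, with 4 at an unadjusted p under 0.05, while DESeq2 called 1 and limma voom 6. Over all tested genes the shares were 27.3% at an unadjusted p under 0.05, 15.5% by DESeq2 and 40.9% by limma voom. Of 15 lens markers 0 were called by edgeR, DESeq2 or limma voom, and 0 had an unadjusted p under 0.05, with summed levels of 29.1 to 1720 CPM in WT and 2.004 to 51505 CPM in KO.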
